A study of Sus scrofa with 27 samples.

Results

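The mitotic cyclins and kinases are the proteins that take a cell through G2 and M phase. The 10 genes, chosen by symbol, were the cyclin-dependent kinase CDK1, the cyclins CCNB1, CCNB2, CCNB3 and CCNA2, the kinases PLK1, AURKA and AURKB, and the checkpoint kinases BUB1 and TTK. Of these, 9 paired with 1 pig Ensembl identifier each among the 35670 identifiers counted, and all 9 were among the 11384 named genes tested. AURKA paired with no identifier and was not analysed here. The measurement was RNA-seq of mural granulosa cells (GCs), the cells that line the wall of the antral follicle, cut by laser capture microdissection from the largest healthy follicle of each sow. All animals were wild-type primiparous sows of a Large White and Norwegian Landrace cross. The full-fed group (FF, n = 13 sows) received 6.5 kg of feed per day in the last 2 weeks of lactation and the restricted group (RES, n = 14 sows) received 3.25 kg per day. Both groups were given the same feed after weaning, and ovaries were collected on day 2 post-weaning. The sows of each group were those with the highest weight loss under restriction and the lowest under full feeding. For each sow 1 follicle was taken, and its size was not used here. The study reports that these follicles were smaller in RES than in FF. Within RES it also reports strong negative correlations of CDK1 and of A-type and B-type cyclin transcripts with follicle size. The part of follicle size in the results below was not tested.

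Cyclins are the regulatory subunits of cyclin-dependent kinases. Cyclin A2 acts in S phase and G2, and B-type cyclins then bind CDK1 to form the kinase that starts mitosis. PLK1 promotes entry into mitosis and spindle assembly, AURKB is the catalytic subunit of the chromosomal passenger complex, and BUB1 and TTK act at the kinetochore in the spindle assembly checkpoint, which holds the cell before anaphase until every chromosome is attached. Transcripts of these genes accumulate toward G2 and M phase in dividing cells, and GCs divide in growing follicles and leave the cell cycle when they differentiate.

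The sequences just upstream of CDK1, CCNB1 and CCNB3 are shown because these genes encode the mitotic kinase and B-type cyclins. In addition, CCNB1 was the only member whose ratio to CDK1 passed the test between diets over all libraries, with limits given below. Each run is read from the RefSeq annotation of Sscrofa11.1, 5′ to 3′ on the strand of the gene, from 200 bases before the annotated gene start to 10 bases after it. Capitals mark the letters CCAAT (or ATTGG, the same letters on the opposite strand), TTTGAA, known as the cell cycle genes homology region (CHR), and TTTCGCGC, a form of the E2F site. The E2F site was searched as TTTCGCGC or TTTGGCGC, all motifs were searched on both strands, and no matched letters in these 3 runs overlapped.
CDK1, chr14:64233745-64233954, plus strand: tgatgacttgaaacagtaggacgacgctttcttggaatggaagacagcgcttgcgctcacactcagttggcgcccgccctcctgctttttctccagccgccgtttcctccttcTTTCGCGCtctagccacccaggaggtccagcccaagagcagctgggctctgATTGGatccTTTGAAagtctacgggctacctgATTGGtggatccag
CCNB1, chr16:47338039-47338248, plus strand: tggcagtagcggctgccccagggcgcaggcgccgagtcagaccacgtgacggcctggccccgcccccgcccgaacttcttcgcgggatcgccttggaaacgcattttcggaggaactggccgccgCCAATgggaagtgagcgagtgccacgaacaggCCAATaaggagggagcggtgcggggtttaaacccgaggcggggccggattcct
CCNB3, chrX:43922529-43922738, plus strand: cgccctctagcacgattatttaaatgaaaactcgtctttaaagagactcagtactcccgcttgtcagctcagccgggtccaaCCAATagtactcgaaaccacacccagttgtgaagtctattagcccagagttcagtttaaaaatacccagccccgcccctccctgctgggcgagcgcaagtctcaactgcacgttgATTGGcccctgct
In a window from 250 bases before to 50 bases after the gene start, CCAAT was found in 8 of the 9 tested members, against 35.4% of 19534 protein-coding RefSeq genes and 36.1% of the 10488 tested genes with such a window. TTTGAA was found in 3 of the 9, CDK1 among them, against 14% of all windows. An E2F site was found in CDK1 alone, against 227 of all 19534 windows. In CDK1 the E2F letters lay at -87 to -80, and TTTGAA at -27 to -22 followed a reversed CCAAT at -36 to -32. CDK1 also carried a reversed CCAAT at -4 to 1 and TTTGAA at 30 to 35. CCNB1 carried CCAAT at -75 to -71 and at -43 to -39, and no TTTGAA in this window. CCNB3 carried CCAAT at -118 to -114 and at 13 to 17, and a reversed copy at -3 to 2. These matches describe the letters in the window and depend on the annotated start, and binding was not measured.

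Total counts per library ranged from 12299220 to 16021200 in FF and from 12942198 to 18120922 in RES. Of the 12 granulosa markers with an identifier, all 12 were tested, 1 was called higher and 1 lower in RES, and their summed normalized count spanned 117300 to 217000 in FF and 114400 to 245000 in RES. Endothelial markers were lower in RES for 4 of 8 tested, with a summed level of 1201 to 2407 in FF and 840 to 2372 in RES, and of the 2 erythroid markers the haemoglobin gene HBB was lower (summed level of both 35.5 to 1045 in FF and 9.63 to 147 in RES). By edgeR, theca markers were called for 0 of 6 (2 lower at an unadjusted p under 0.05, 1 lower by DESeq2, summed level 1507 to 4610 and 1099 to 4370), immune markers for 0 of 3 (1 lower at an unadjusted p under 0.05 and by DESeq2, summed level 59.7 to 258 and 37.6 to 230), oocyte markers for 0 of 1 (0 at an unadjusted p under 0.05 and by DESeq2, summed level 164 to 355 and 148 to 318), and 2 of 10 stroma and pericyte markers were lower (15620 to 44250 and 12340 to 41120). No marker with an identifier was at 0 in every library. The part of these shifts in the results on cyclins and kinases was not tested. In bulk RNA of this kind, more dividing cells and more transcript per dividing cell cannot be told apart.

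All 9 tested cyclins and kinases rose in RES GCs, by 1.01 to 1.32 on the log2 scale with a median of 1.09. In the background of all named genes tested, 8.29% were called higher in RES (944 of 11384) and 5.85% lower, and the median log2 fold change over all of them was -0.02. Calls are those of edgeR's quasi-likelihood test with Benjamini-Hochberg adjustment over all 11384 genes at an adjusted p under 0.05. CCNB1 had the highest value of the 9 in 39 of 40 alternative settings and CCNA2 the lowest in 29. DESeq2 also called all 9, where it called 9.55% of the tested genes higher. Values are normalized counts, the counts divided by a size factor of the library, and they are compared between sows and not between genes, because the lengths of the genes differ.

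CDK1 (ENSSSCG00000010214, Sscrofa11.1 chr14:64233945-64255290) encodes the kinase that drives entry into mitosis. Its normalized count ran from 185.5 through a median of 553 to 1607 in FF, and from 399 through 1434 to 2545 in RES. By the number of RES sows above the highest FF sow, FF sow 3, the groups overlapped more than for any other member, at 6 of 14. CDK1 rose by 1.03 ± 0.26 on the log2 scale (SE), 2.04-fold, with an edgeR adjusted p of 0.00926. The RefSeq annotation places exons of another gene, LOC100152879, on the opposite strand within CDK1 exons. The counting took no account of strand and used Ensembl identifiers, so how reads over these bases were assigned is not known here.

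The B-type cyclins, the partners of CDK1, rose alongside it. CCNB1 (ENSSSCG00000029326, chr16:47338239-47348385) ran from 159.5 through 866 to 1955 in FF and from 644 through 2371 to 4196 in RES. It had the largest difference of the 9 members, 1.32 ± 0.30 on the log2 scale (2.49-fold, edgeR adjusted p = 0.00428), and 8 RES sows lay above every FF sow. CCNB2 (ENSSSCG00000004588, chr1:112907047-112942218), the second B-type cyclin of somatic cells, ran from 61.5 through 268 to 508 in FF and from 256 through 593 to 688 in RES. RES sows were more uniform in CCNB2 than FF sows, with a coefficient of variation of 0.24 against 0.518. Its log2 fold change was 1.06 ± 0.22 (edgeR adjusted p = 0.00289). CCNB3 (ENSSSCG00000012307, chrX:43922729-43988939), a B-type cyclin best known from meiosis, ran from 43.3 through 222 to 400.1 in FF and from 216 through 523 to 756 in RES. With 12 of 14 RES sows above the highest FF sow, CCNB3 separated the diets most completely of all members, and it rose by 1.17 ± 0.23 (edgeR adjusted p = 0.00194).

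CCNA2 (ENSSSCG00000060144, chr8:102260346-102266274), the cyclin of S phase and G2, ran from 74.9 through 163 to 273 in FF and from 111 through 351 to 619 in RES. It had the smallest difference of the members, 1.01 ± 0.21 on the log2 scale (2.02-fold, edgeR adjusted p = 0.0025). The FF sows lay close together at the top, with a highest count of 273 and a next one of 272, and 11 RES sows exceeded both. RES sow 7, at 111, was again the lowest of its group and the only RES sow below the FF median.

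The kinases of mitotic entry and chromosome alignment also rose. PLK1 (ENSSSCG00000026748, chr3:22537814-22550901) ran from 25.0 through 89.6 to 164 in FF and from 68.9 through 211 to 380 in RES, a log2 fold change of 1.14 ± 0.25 (edgeR adjusted p = 0.00321). AURKB (ENSSSCG00000028924, chr12:53410833-53426165) ran from 40.4 through 89.3 to 152 in FF and from 78.9 through 199 to 493 in RES, a log2 fold change of 1.15 ± 0.21. AURKB had the lowest adjusted p of the members, 0.00183 by the edgeR quasi-likelihood test, and 11 RES sows lay above every FF sow. RES sow 3 had the highest count of both genes, 2.6 times the median of the other RES sows for AURKB and 2.09 times for PLK1, against 1.01 times (TTK) to 1.48 times (CCNA2) for the other 7 members. Exons of ERN2 overlap those of PLK1 on the opposite strand in RefSeq, and the assignment of reads there is likewise not known. A tRNA gene shares exon bases with AURKB on the same strand.

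The checkpoint kinases rose as well. BUB1 (ENSSSCG00000030469, chr3:45585188-45623240), which recruits checkpoint proteins to kinetochores, ran from 93.2 through 414 to 873 in FF and from 408 through 975 to 1356 in RES. Its log2 fold change was 1.07 ± 0.24 (edgeR adjusted p = 0.00397), and 8 RES sows lay above every FF sow. TTK (ENSSSCG00000004466, chr1:86076576-86125334), the kinase also called MPS1 that starts checkpoint signalling, ran from 223 through 677 to 1530 in FF and from 527 through 1766 to 2818 in RES. It rose by 1.09 ± 0.23 (edgeR adjusted p = 0.00286), with 10 RES sows above the highest FF sow.

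**Figure D1:**
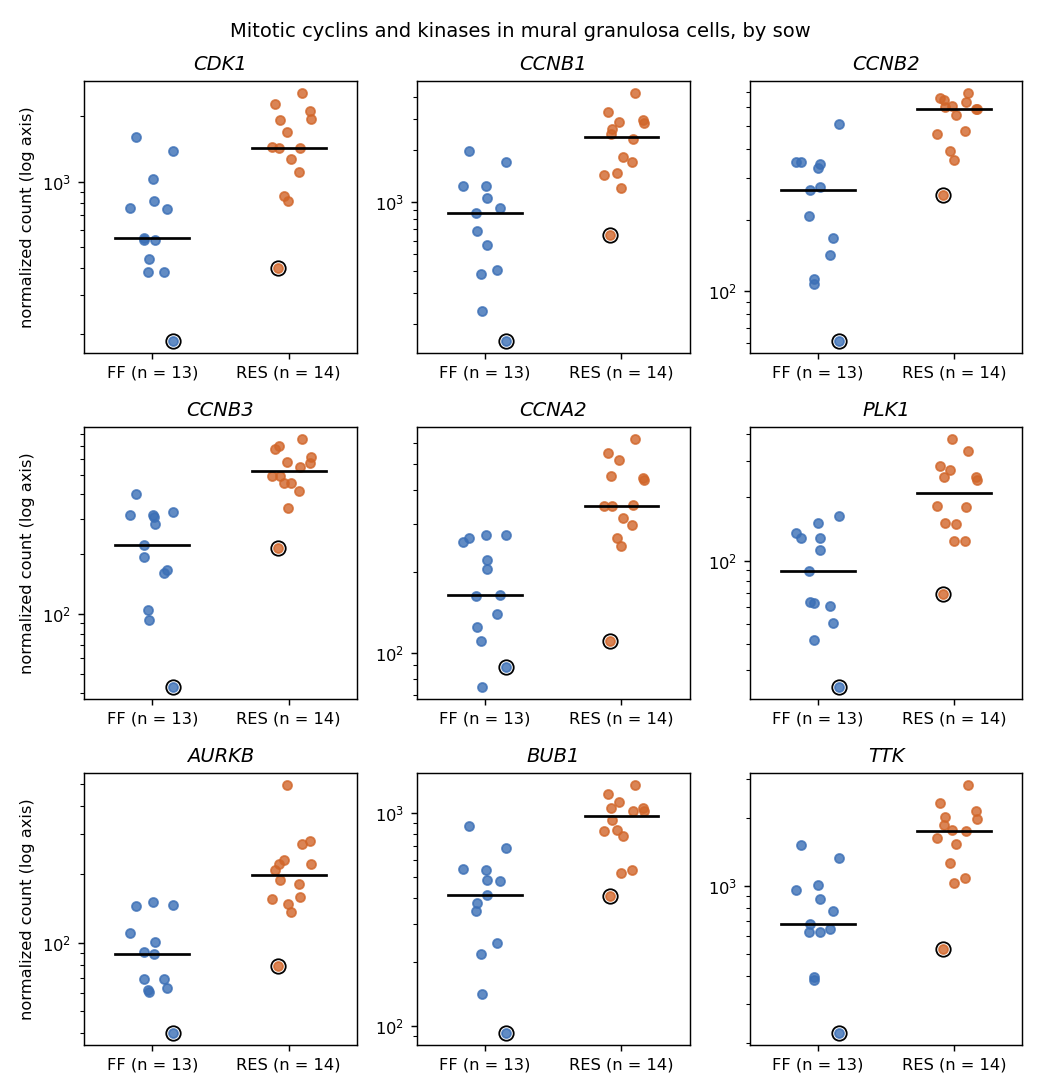
Normalized counts of the 9 tested mitotic cyclins and kinases (log axis) in each sow, for FF (n = 13, blue) and RES (n = 14, orange). Points are sows, black lines are group medians, and rings mark FF sow 2 and RES sow 7, which sat at or near the bottom of their group for every gene.

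The same sows stood at the ends of the range for nearly every member. For each of the 9 genes, 13 of 14 RES sows lay above the FF median, a separation that 9% of all tested genes reached (1025 of 11384), and the exception each time was RES sow 7. FF sow 2 was the lowest library of all for every member except CCNA2, where FF sow 6 was lower. Ranked by the mean log2 count of the members, the 11 highest libraries were RES, led by RES sow 1, and FF sows 3 and 4 followed at ranks 12 and 13. RES sows 13, 10 and 7 lay among the FF sows, at ranks 14, 16 and 23. The coefficient of variation was larger in FF than in RES for 8 of the 9 members, and the difference in spread was not tested. For CCNB1 it was 0.628 in FF and 0.42 in RES, or 0.565 in FF without FF sow 2 and 0.361 in RES without RES sow 7. AURKB was the exception, at 0.397 in FF and 0.456 in RES, and without RES sow 3 its RES value was 0.294, a change of over 1.5 times that put it below FF.

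Base quality values in the study's supplement separate the libraries into an upper and a lower group, and each diet is represented in both (7 FF and 7 RES in the upper, 6 FF and 7 RES in the lower). Within the upper group, log2 fold changes of the members were 1.1 to 1.41 and 8 of 9 were called, with BUB1 at an edgeR adjusted p of 0.0534, where 9.83% of all tested genes were called higher. Within the lower group the log2 fold changes were 0.71 to 1.29 and 0 of 9 were called, where edgeR called 1 of the 11384 genes (0.00878% of them higher). All 9 members there had an unadjusted p of at most 0.017 and an adjusted p of 0.115 to 0.29. The diet by quality interaction in edgeR called 0 genes (1398 at an unadjusted p under 0.05), and the members' adjusted p for it was 0.585 to 0.976.

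**Figure D2:**
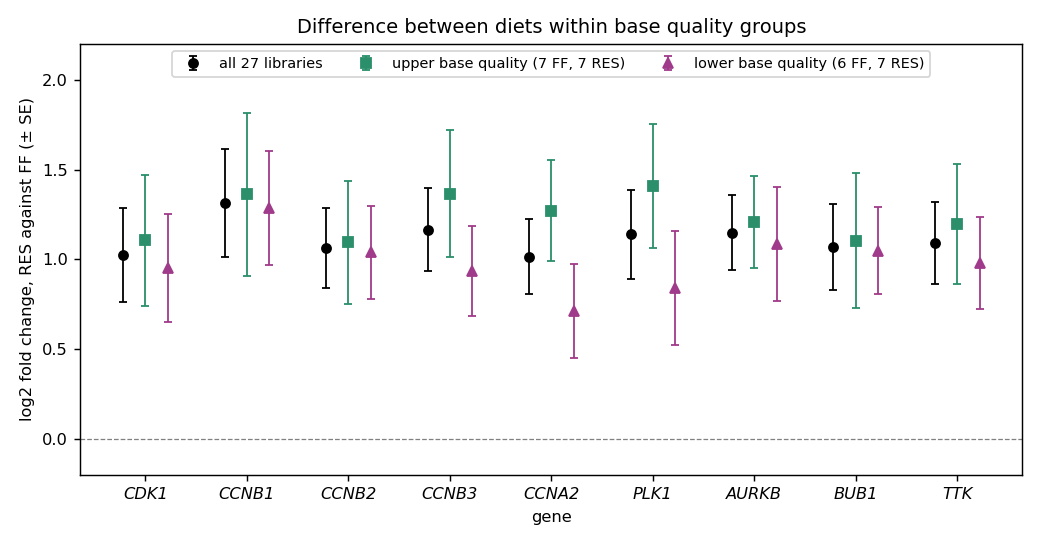
Log2 fold change of each tested member between RES and FF (± SE, edgeR) in all 27 libraries (black circles), within the upper base quality group (green squares, 7 FF and 7 RES) and within the lower one (purple triangles, 6 FF and 7 RES). All values are above 0, and the lowest, 0.71, is that of CCNA2 in the lower group.

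The members were then set in the order of the cell cycle, among 6 lists of other regulators, by log2 fold change in the same edgeR fit. The G1 to S cyclins and kinases had a median of 0.23 and 2 of 8 were called higher. S phase regulators had a median of 0.87 with 17 of 21 called, the G2 to M switch 0.93 with 11 of 14, the members 1.09 with 9 of 9, M phase partners 1.12 with 19 of 20, and mitotic exit 1.14 with 5 of 6. Of the 72 genes in the 6 lists, edgeR called 54 higher and 0 lower, with 0 lower at an unadjusted p under 0.05 and 0 by DESeq2. The G1 to S median stayed below that of S phase in all 40 alternative settings, of which 27 only left out 1 sow. The S phase median stayed below those of the members and of M phase partners in all 40 as well. Within the upper quality group the medians were 1.17 for S phase, 1.21 for the members and 1.22 for M phase partners. Within the lower group they were 0.52, 0.98 and 1.005. The step from S phase to the G2 to M switch was reversed in 2 of the 40 settings and that from M phase partners to mitotic exit in 7, and no difference between lists was tested.

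On the G1 to S list edgeR called 2 of 8 genes higher, with 4 higher at an unadjusted p under 0.05 and 3 called by DESeq2. CDK2, the partner of cyclins E and A, rose by 0.68 (edgeR adjusted p = 0.0057), from 146 ± 47.4 to 243 ± 66.4 normalized counts (SD), and CCNE1, a cyclin E, rose by 0.66 (edgeR adjusted p = 0.0231), at 19.3 ± 6.6 and 31.6 ± 9.74 counts. The other cyclin E gene, CCNE2, was at 1093 ± 421 in FF and 1660 ± 562 in RES. Its log2 fold change of 0.56 missed the threshold (edgeR adjusted p = 0.0574). The study, which used DESeq2, lists CCNE2 among the genes significantly higher in RES. CCND1, a D-type cyclin that couples growth signals to the cycle, had a log2 fold change of -0.38 with an edgeR adjusted p of 0.17. The CDK-activating kinase, which phosphorylates CDK1 and CDK2, was called for 0 of its 3 genes by edgeR's test (0 at an unadjusted p under 0.05 and 0 by DESeq2). The log2 fold change was -0.15 for CCNH and 0.16 for MNAT1.

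In S phase, ORC1, a subunit of the origin recognition complex, had the highest value, 1.23 (154 ± 80.2 in FF and 376 ± 157 in RES, edgeR adjusted p = 0.00277). CDC7, the kinase that fires origins, had the lowest, 0.29, and was called as well (edgeR adjusted p = 0.0268). In the G2 to M switch, CKS2, a small subunit that binds CDK1, rose by 1.21, from 641 ± 317 to 1532 ± 573 (edgeR adjusted p = 0.00194). ENSA, a substrate of the kinase MASTL and through it an inhibitor of the phosphatase PP2A-B55, had a log2 fold change of -0.02 (edgeR adjusted p = 0.905).

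Among the M phase partners, BIRC5, the survivin subunit of the chromosomal passenger complex that contains AURKB, rose most, by 1.44 (122 ± 66.6 in FF and 343 ± 125 in RES, edgeR adjusted p = 0.00194). The other subunits of that complex on the list also rose, CDCA8 by 1.19 and INCENP by 0.86. MAD1L1, a checkpoint protein at the kinetochore, had the lowest value, 0.13, at 15.1 ± 9.56 counts in FF and 17 ± 7.13 in RES (edgeR adjusted p = 0.782). For mitotic exit, UBE2C, the ubiquitin-conjugating enzyme of the anaphase-promoting complex (APC/C), rose by 1.42, from 659 ± 375 to 1840 ± 994 (edgeR adjusted p = 0.00198). The APC/C activator CDC20 rose by 1.1 (edgeR adjusted p = 0.0144), whereas the other activator, FZR1, had a log2 fold change of 0.26 with an adjusted p of 0.102.

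**Figure D3:**
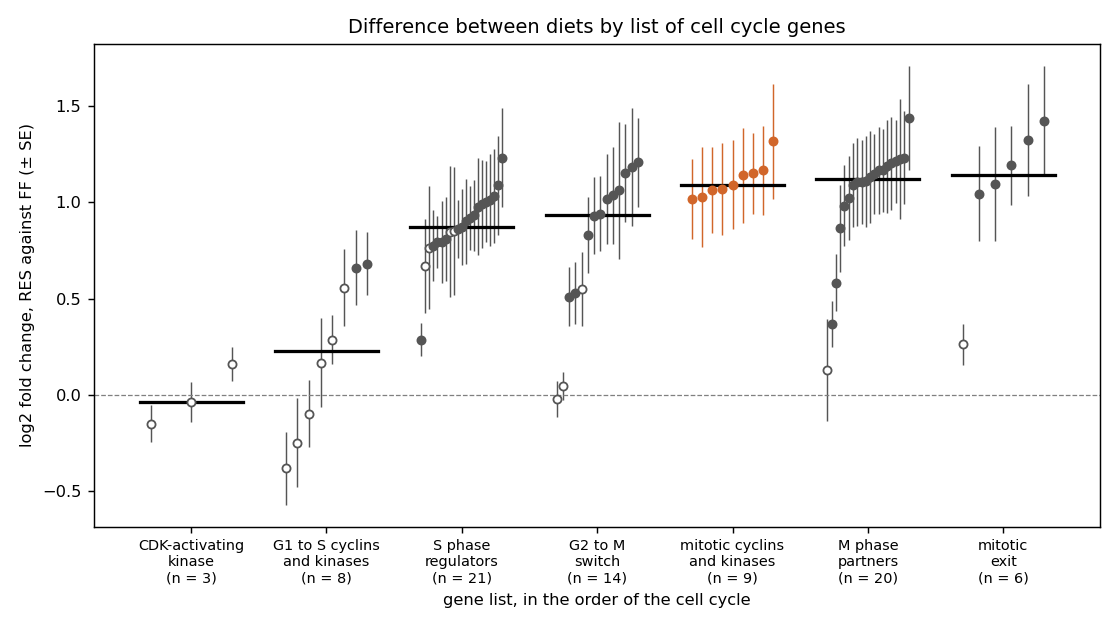
Log2 fold change between RES and FF (± SE, edgeR) of every tested gene of the members (orange) and of 6 lists, ordered by cell cycle phase. Filled points passed an adjusted p of 0.05, open points did not, and black lines are list medians, which run from -0.04 for the CDK-activating kinase and 0.23 for the G1 to S list to 1.14 for mitotic exit.

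Whether any member moved more than CDK1 was asked with the log2 ratio of its normalized count to that of CDK1 in the same sow, from which the size of the library cancels. CCNB1 was the member whose ratio differed between diets. The ratio ran from -0.91 (FF sow 6) through 0.28 to 0.70 in FF and from -0.02 (RES sow 4) through 0.58 to 0.78 in RES, and 13 of 14 RES sows lay above the FF median. The mean rose from 0.17 ± 0.41 (SD, n = 13) to 0.57 ± 0.20 (SD, n = 14), a difference of 0.40 ± 0.13 (SE) with a two-sided permutation p of 0.00111, or 0.00888 after adjustment over the 8 ratios.

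The ratios of the other 7 members to CDK1 differed by -0.07 (CCNA2) to 0.22 (CCNB3), with adjusted permutation p values of 0.622 to 0.83. These differences carried SEs of 0.08 (TTK) to 0.19 (PLK1). The CCNB1 difference was 0.31 to 0.44 when each sow was left out in turn, with the lowest value without FF sow 6. It was 0.40 within the upper quality group (adjusted exact permutation p = 0.353) and 0.39 within the lower (adjusted exact permutation p = 0.042).

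Set against the other members, a choice made after CCNB1 was seen to differ, the CCNB1 ratio was higher in RES for all 7, by 0.18 against CCNB3 to 0.47 against CCNA2. The difference passed for CCNA2 (adjusted permutation p = 0.033), TTK (0.033) and BUB1 (0.0456). It did not for CCNB2 (0.149), AURKB (0.149), PLK1 (0.151) or CCNB3 (0.225).

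**Figure D4:**
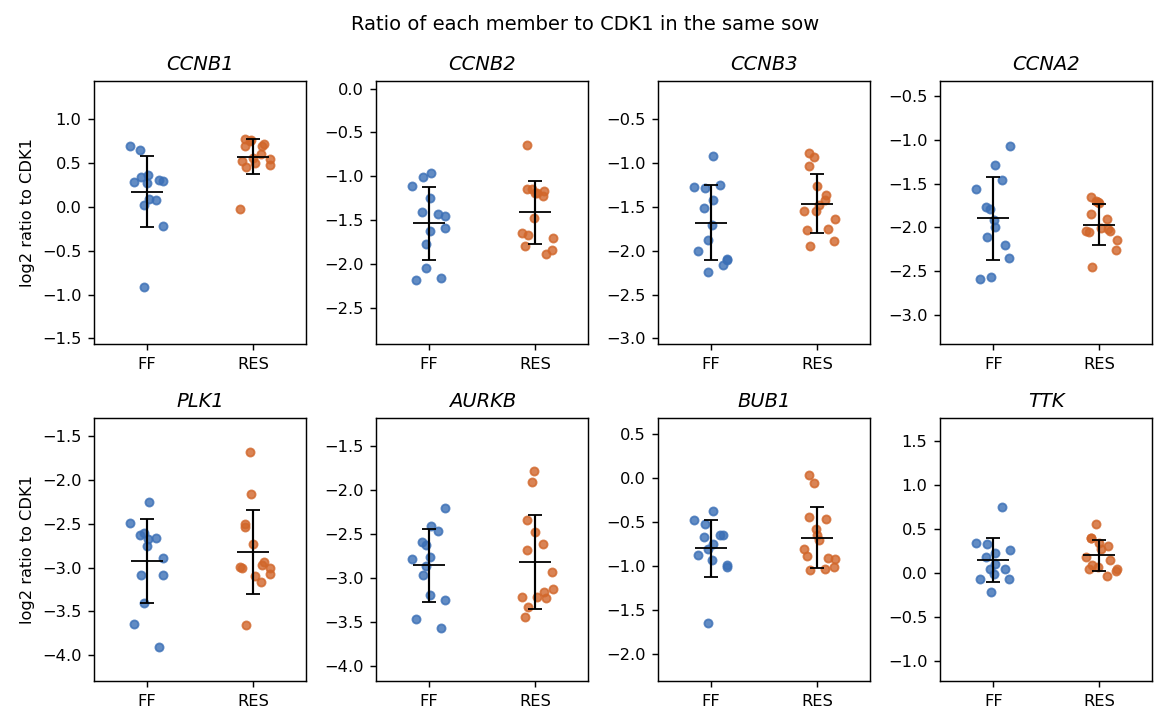
Log2 ratio of each other member to CDK1 in the same library, by sow, for FF (blue) and RES (orange), with the mean and SD in black. All panels span the same range of log2 units at different offsets. The mean of CCNB1 moved from 0.17 to 0.57, and those of the other members differed by at most 0.22.

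Members also rose and fell together among sows on the same diet. Correlations were taken within each group, never across both, for all 36 pairs of members. This gave 72 correlations, and the permutation p values were adjusted over all of them. Genes of a library share its depth and cell composition, and follicle size differed between sows. A common r among these genes therefore describes how they vary together and not a link between any of them. In FF, Pearson's r ran from 0.776 (CDK1 with PLK1) to 0.978 (CCNB1 with TTK) with a median of 0.887, and all 36 passed (adjusted permutation p at most 0.00113). Spearman's rho in FF was 0.819 to 0.978 with adjusted permutation p values of at most 0.00137. Without the 2 sows farthest from the median of the first gene, r was 0.702 to 0.961, and within quality groups it was 0.817 to 0.996 in the upper and 0.754 to 0.992 in the lower.

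In RES the median r was 0.885 and the highest was that of CDK1 with TTK (r = 0.971, rho = 0.969, each with a permutation p of 1e-05, the smallest that 100000 resamples can give). Of the 36 RES pairs, 32 passed. The 4 that did not all held AURKB, with TTK (r = 0.451, permutation p = 0.108), CDK1 (0.477, permutation p = 0.0802), CCNB2 (0.486, permutation p = 0.0771) and CCNB3 (0.527, permutation p = 0.0558), values that adjustment moved to 0.0582 to 0.108. By Spearman's rho these 4 pairs were at 0.648, 0.622, 0.543 and 0.679, with adjusted permutation p values of 0.0145, 0.02, 0.0469 and 0.00976, and all 36 pairs passed. Without the 2 farthest sows, r over the 36 RES pairs ran from 0.24 (CCNB2 with AURKB) to 0.948. It ran from 0.737 to 0.994 within the upper quality group and from 0.417 to 0.968 within the lower.

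The median r of AURKB with the other members was 0.877 in FF and 0.553 in RES, and the difference was not tested. RES sow 3, with its high AURKB and PLK1, set much of the RES value: without it the median r of AURKB was 0.768, the lowest r of any pair was 0.641 and all 36 pairs passed. Without RES sow 7, the low library, the median for AURKB was 0.436, the lowest r was 0.297 and 28 pairs passed. PLK1 had a median r of 0.774 with the other members in RES and its highest r, 0.859, with AURKB, but without RES sow 3 its highest r was with BUB1 (0.89). On log2 normalized counts, where single high sows weigh less, the lowest RES r was 0.654 and all 36 pairs passed.

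**Figure D5:**
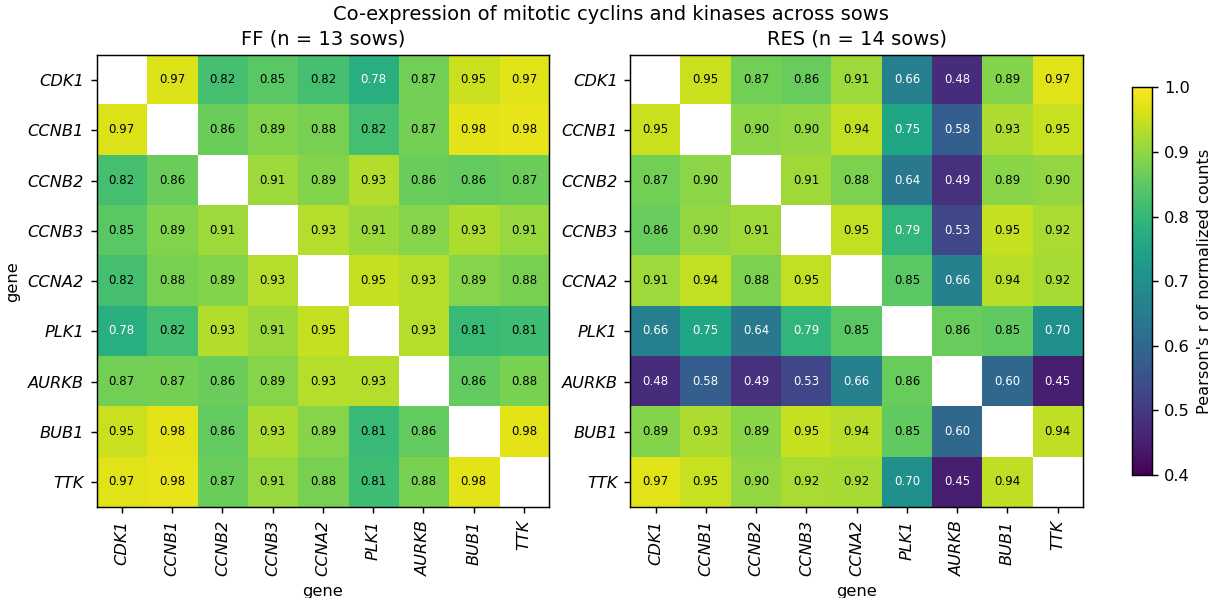
Pearson's r of normalized counts between each pair of tested members across 13 FF sows (left) and 14 RES sows (right), with the value printed in each cell and colour on the same scale. FF values are all at least 0.776, and the AURKB row and column of RES hold the lowest values, down to 0.451.

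The genes whose pattern over sows was most like that of the members were found by Pearson's r, over the 27 libraries after the mean of each diet was subtracted, between each tested gene's log2(normalized count + 1) and the members' mean log2 count. The values are given as a description, with no test. The 10 highest were RACGAP1 (0.989), TOP2A (0.989), NUSAP1 (0.987), KIF4A (0.986), SGO1 (0.985), BUB1B (0.984), NDC80 (0.983), TPX2 (0.982), CKAP2L (0.979) and KIF11 (0.978). The median over all tested genes was 0.04, and 95 genes other than the members were above 0.9. TOP2A, the DNA topoisomerase that untangles chromosomes, went from 7861 ± 4036 normalized counts in FF to 18120 ± 6250 in RES (SD). RACGAP1, a subunit of centralspindlin in cytokinesis, went from 643 ± 317 to 1454 ± 437. Of the 10, 5 were on the list of M phase partners, and the log2 fold changes of all 10 lay between 1.03 (NUSAP1) and 1.26 (KIF4A).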

How the data were processed

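The sources give 1 file per sow holding the authors' deposited counts, whole numbers of deduplicated reads per Ensembl identifier. Per the labels and the study's methods, reads were aligned to Sscrofa11.1 with HISAT2 2.2.1, uniquely mapped reads were kept with SAMtools 1.16.1, duplicates were removed with UMI-tools 1.1.4 and exons were counted with featureCounts 1.6.2 without a strand option, on a library that marks strand. The 11384 identifiers tested pair with a symbol, name no small RNA and average 5 counts or more across the 27 libraries. The members, lists and tests were chosen with earlier results of these data known.

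RES was compared with FF in edgeR 4.0.16 (TMM, quasi-likelihood test, Benjamini-Hochberg, adjusted p under 0.05) in R 4.3.3, tested on simulated data. Normalized counts are counts divided by DESeq2 1.42.0 size factors. Ratios and correlations used Python 3.11.15 and SciPy 1.17.1 with 100000 permutations, and exact permutations within quality groups. Alternatives were DESeq2, other scalings and filters, voom with quality weights (limma 3.58.1), base quality group or RNA integrity as a covariate, and leaving out each sow. The genes named were all members, the highest and lowest log2 fold change of each list, and the 10 genes most like the members; CDCA8, INCENP, CCNE1, CCNE2 and CDC20 were added after their values were seen. Labels and methods differ on feed after weaning (fully fed, or a fixed allowance), which was equal in both groups. The supplementary quality and RNA integrity entries of FF sow 10 may belong to another sow. Total counts limit precision to counting error plus the spread between sows. Upstream sequences are printed for CDK1, CCNB1 and CCNB3; those of the other members are not reported here.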

Additional observations from a re-analysis of the deposited data

How the results depend on the processing

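All 9 tested members were called higher in each of the 27 fits that left out 1 sow and in 11 other settings (DESeq2, scalings, filters, covariates, voom, the replicate block and, chosen after seeing the data, without RES sows 3 and 5). Within the lower quality group the calls were 0 members, 0 of the listed cell cycle genes and 1 of all genes (6 FF and 7 RES sows), against 8 members and 2023 genes within the upper group (7 and 7); the cause was not tested. Over all genes 1610 were called, 3193 with voom and sample quality weights (the cause was not tested), and 1182 to 2350 when 1 sow was left out, the highest without RES sow 7. Calls higher in RES were 58.6% of all calls, 69.6% with DESeq2 size factors in edgeR, 51.1% with upper-quartile factors and 51.7% with voom; the median log2 fold change moved by 0.04 with the first and -0.02 with the second. Sow numbers do not pair animals of FF and RES: of 13 shared numbers, 1 had deviations correlated above 0.1, and with the replicate block 1086 genes and all 9 members were called. The CCNB1 to CDK1 difference was 0.40 but not called within the upper quality group, and CCNB1 against CCNB2 (0.27), CCNB3 (0.18), PLK1 (0.29) and AURKB (0.36) was not called; the cause was not tested. The ratios of CCNA2 (0.0767 within the upper group) and PLK1 (-0.16 within the lower) and that of AURKB (-0.0399 to 0.0947 when 1 sow was left out) changed sign and were never called. The count of co-expressed pairs stayed within 1.5 times its value in every setting, at 28 to 36 in RES over the fits that left out 1 sow. Without the 2 farthest sows 30 RES pairs passed. Within quality groups the pairs were counted at an unadjusted exact permutation p under 0.05. In the lower group these were 25 RES and 31 FF pairs, and in the upper group 34 and 36.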

Other observations

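Close relatives of the members were measured beside them. PLK4, the polo-like kinase that starts centriole duplication, rose from 739 ± 249 normalized counts in FF to 1509 ± 503 in RES (SD), by 0.98 on the log2 scale (edgeR adjusted p = 0.00194). PLK2, a relative of PLK1 known as a stress and growth factor response gene, had a log2 fold change of -0.16 (edgeR adjusted p = 0.421). CCNA1, the A-type cyclin of the germ line, was counted at 7.64 ± 5.5 in FF and 14.8 ± 8 in RES, a log2 fold change of 0.90 that was not called (edgeR adjusted p = 0.0953).

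By the same r to the members' mean, after the mean of each diet was subtracted, the genes that ran most against the members within both diets were TENM1 (r = -0.83), GLDN (-0.81), FRMD3 (-0.80), GCNT1 (-0.79) and CHCHD3 (-0.79), named after their values were seen. GLDN, which encodes gliomedin, was at 1541 ± 1068 in FF and 501 ± 373 in RES and fell by 1.64 on the log2 scale (edgeR adjusted p = 0.00312).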
